A study of Homo sapiens with 6 samples.

Results

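Androgen-induced genes other than the kallikreins were followed in LNCaP cells exposed to urolithin A. The list held 42 genes, chosen by name as genes that androgen is known to raise, with earlier results of these arrays known. Its contrast with all genes below is therefore not independent evidence of the direction. Of these, 38 had at least 1 probe set of the array that names them alone, among 18239 genes measured in that way. The 38 genes were read by 136 probe sets, whose values were averaged for each gene. ADAM7, SORD, PART1 and KCNN2, the remaining 4, were not analysed here.

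LNCaP is an established human line of prostate adenocarcinoma cells that respond to androgen, and urolithin A is a metabolite formed by gut bacteria out of dietary ellagitannins. The Affymetrix Human Genome U219 platform was used for total RNA of control cells (3 arrays) and of cells kept for 24 h with 40 µM urolithin A (3 arrays). Both groups had F12 medium and fetal bovine serum, no androgen or antagonist is named for either group, and the controls are called untreated in the titles and saline-treated in the protocol. The median of the 3 control arrays had been subtracted from the log2 values, which therefore show differences between arrays and no levels, and the identity of the cells could not be checked against the level of its markers. Separate cultures are not named in the labels for the arrays of a group, so p-values here measure only how far these arrays spread, and that spread may be technical. In bulk RNA, a lower value in every cell and fewer expressing cells cannot be told apart.

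Androgens act through the androgen receptor, a transcription factor that is held by chaperones until it binds hormone, then enters the nucleus and binds DNA elements, most of them in enhancers far from the genes they serve. In prostate cells its targets reach well beyond the secreted kallikreins. They include transcription factors, scaffolds of signalling, enzymes of lipid and sugar metabolism, and proteins that act back on steroid receptors. Some of the same genes are also raised by glucocorticoids, whose receptor binds closely related elements.

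After urolithin A, 25 of the 38 measured genes fell, none rose and 13 did not pass (limma, Benjamini-Hochberg adjusted p under 0.05 over all 18239 genes). Among all genes 5.31% fell and 4.85% rose, 10.2% in either direction. At an unadjusted p under 0.05, 2 members, MERTK and APPBP2, would count as higher. The median log2 change of the members was -0.67, against 0.01 over all genes. The 3 urolithin A arrays all lay below the 3 control arrays in 27 of the 38 members, as they did in 13.7% of all genes, and all above them in 2, as in 15.6% of all genes (29.3% in either direction). The falls ranged from 1.20-fold to 3.59-fold with a median of 2.12-fold, and 15 of them were at least 2-fold, a size of fall reached by 0.406% of all genes. Leaving out any single array gave 22 or 23 fallen members, and 22 of the 25 calls held in each of these fits. The count was 12 without moderation of the variances and 7 with urolithin A replicate 1 alone against control replicates 2 and 3, where the median log2 change was -0.85 and the lone array was assumed to vary like the controls. It was 5 of 13 measured when all probe sets with a suffix for shared sequence or several transcripts were left out.

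**Figure D1:**
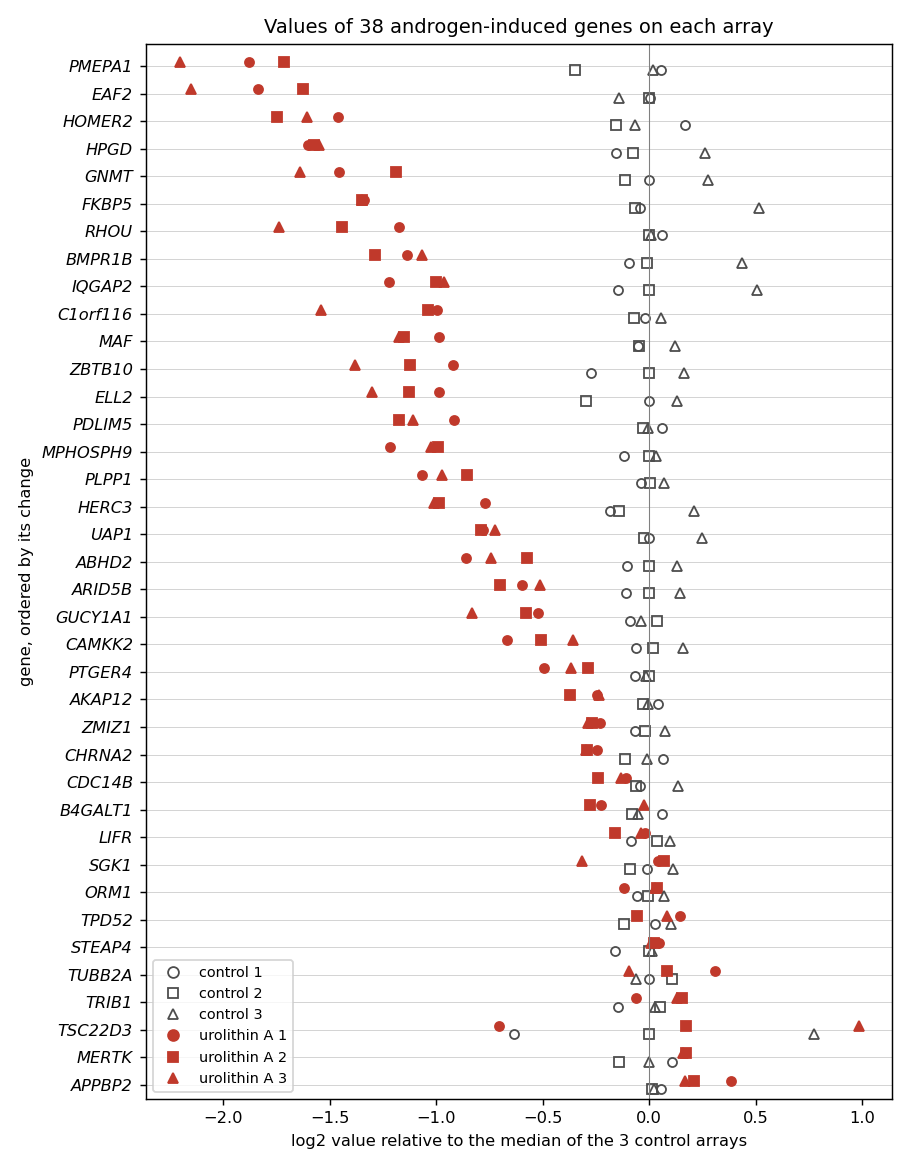
Each row is a measured member, with the log2 value of each array relative to the control median on the x axis; open grey symbols are control arrays and filled red symbols urolithin A arrays, with shape giving the replicate number. From PMEPA1 at the top to CDC14B the red symbols lie wholly to the left of the grey ones, while those of TSC22D3 spread over more than 1 log2 unit within each group.

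The median of the members was -0.04, -0.01 and 0.07 on control replicates 1, 2 and 3 and -0.74, -0.64 and -0.73 on urolithin A replicates 1, 2 and 3. Within groups, the standard deviation of 27 of the 38 members was above 0.10, the median of all genes. Control replicate 3 was the highest control for 17 of the 25 fallen members. That array also had low 18S ribosomal RNA, at -0.45 against 0.05 and 0.01 in the other controls, and urolithin A arrays had 0.03, -0.22 and -0.48. HLA-DRA, an antigen presentation gene listed among immune cell markers, was at 1.01, 0.03 and -0.02 in the controls and at -0.02, 1.17 and 3.09 after urolithin A. Of 26 measured markers of luminal, basal, neuroendocrine, fibroblast, endothelial and immune cells, 0 passed the limma test (1 was lower and 1 higher at an unadjusted p under 0.05). Among all genes 10.2% passed. The summed value of the 5 immune markers ran from -0.19 to 1.38 in controls and from -0.02 to 4.56 after urolithin A. Without control replicate 3 the number of fallen members was 22, and without the 2 arrays with the highest HLA-DRA of their groups it was also 22. Without all 3 arrays with raised HLA-DRA, control replicate 1 and urolithin A replicates 2 and 3, it was 7, the count given above for the lone treated array. The summed value of the 5 luminal markers was 0.44, -0.22 and 0.03 in the controls and 0.31, -0.86 and -1.62 after urolithin A. Among them the keratin gene KRT19 was at 0.33, -0.05 and 0.00 and at -0.06, -0.96 and -1.80, all below the controls, and did not pass (log2 change -1.03, adjusted p = 0.117). The log2 changes of EPCAM, KRT8, KRT18 and CDH1 were 0.20, 0.13, -0.07 and -0.04, and none passed. KRT19 and KRT8 are also listed below among the other genes of the androgen response. The part of the luminal markers and of 18S RNA in the result was not tested.

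All 6 measured members with a role in transcription fell, with a median log2 change of -1.10, where 5.31% of all genes fell. The same share of all genes stands beside the counts of the other role groups below. The roles were assigned for this description, and the call of ZMIZ1 among the transcription members was unstable, as given below. EAF2, a partner of the ELL elongation factors of RNA polymerase II, stood at 0.01, 0.00 and -0.14 in the controls and at -1.83, -1.63 and -2.15 after urolithin A. The groups were far apart, with every urolithin A array more than 1 log2 unit below every control. Its log2 change was -1.83 (SE 0.12, adjusted p = 0.000258 by limma), a 3.55-fold fall read by a single probe set. ELL2, the elongation factor that EAF2 binds, was at 0.00, -0.30 and 0.13 in the controls and at -0.99, -1.13 and -1.30 after urolithin A. It fell 2.12-fold (log2 change -1.08, SE 0.12, adjusted p = 0.00141), so both partners of this complex were lower on each treated array.

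MAF, a transcription factor of the bZIP class, fell 2.16-fold (log2 change -1.11, SE 0.08, adjusted p = 0.000315), from -0.05, -0.05 and 0.12 in the controls to -0.99, -1.15 and -1.17. ZBTB10, a zinc finger repressor, fell 2.15-fold, with urolithin A arrays at -0.92, -1.12 and -1.38. ARID5B, a DNA-binding protein with an AT-rich interaction domain, fell 1.53-fold, with urolithin A arrays between -0.70 and -0.51 and controls between -0.11 and 0.14. ZMIZ1, a coregulator that binds the androgen receptor, had the smallest fall of all members, with a log2 change of -0.26 (SE 0.07; adjusted p = 0.0428). Its call was lost in each fit that left out an array, where adjusted p reached 0.125. Neither of its 2 probe sets passed alone.

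Sequences just upstream of the transcription starts were read because the fallen members moved together. EAF2, HOMER2 and PMEPA1 are shown as the 3 deepest falls, with GC box and AGAACA matches, MAF for its TATA match and IQGAP2 for its AGAACA match, so matches had a part in the choice. Promoter sequences of RefSeq on GRCh38.p14, from 250 bases before each start to 50 after it, were matched for 31 of the 38 measured members, with 59 starts. The promoters called all promoters below are 35116 starts of 27305 genes, not only of the 18239 genes measured on the arrays. In the stretches below the capitals mark the motif named for each, on either strand, and each stretch ends before the start or is a window of 30 bases.
EAF2 (chr3:121835059-121835208, + strand, GGGCGG): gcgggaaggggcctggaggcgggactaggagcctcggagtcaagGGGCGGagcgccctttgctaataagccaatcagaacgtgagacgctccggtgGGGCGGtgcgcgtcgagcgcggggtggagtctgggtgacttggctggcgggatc
HOMER2 (chr15:82952721-82952870, - strand, GGGCGG): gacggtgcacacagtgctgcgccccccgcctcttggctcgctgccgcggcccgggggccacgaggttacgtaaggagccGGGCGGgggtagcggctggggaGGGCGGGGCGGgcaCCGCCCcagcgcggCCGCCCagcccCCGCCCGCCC
MAF (chr16:79600738-79600837, - strand, TATAAA): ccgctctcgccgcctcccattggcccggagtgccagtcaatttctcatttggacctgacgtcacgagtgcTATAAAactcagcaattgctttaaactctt
PMEPA1 (chr20:57710789-57710818, - strand, AGAACA): acctgaagaatgTGTTCTtgtagcactcct
IQGAP2 (chr5:76547342-76547371, + strand, AGAACA): gcattctcttggTGTTCTggaatgtccatt

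The full androgen response element, with AGAACA and its reverse complement TGTTCT set 3 bases apart, was searched first. Only exact matches were searched, not elements that differ in some bases. The full element was found in 0 of 59 member promoters. Of all 35116 promoters 1 held it, or 0.00285%, so exact matches to it are rare in a window of this size. Its arm, AGAACA on either strand, which is part of the full element, was found in 6 of 59 member promoters (10.2%) and in 14.8% of all. By gene, these shares were 16.1% and 17.5%. The stretch of PMEPA1 shows the arm with its first base at position -229 of a start other than the most upstream, and that of IQGAP2 likewise at position -55. The TATA sequence TATAAA, searched on both strands, whose matches can overlap each other, occurred at 16.9% of member starts and at 11.5% of all. Among starts of fallen members it was at 7.69%, and among those of members that did not pass at 35.0%, where 7 of 20 starts had it. In MAF it begins at position -30. The GC box GGGCGG, also searched on both strands and able to overlap itself as in HOMER2, was found at 62.7% of member starts and at 45.0% of all. Among starts of fallen members it was at 59.0%, and among those of members that did not pass at 70.0%. By gene, the GC box was in 87.1% of members and in 48.3% of all. Member promoters had a median of 26 CpG pairs, as against 14 over all promoters. That median was 26 both for fallen members and for members that did not pass. The starts of a gene are not independent of each other, and a match is a description of letters, not of binding.

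Scaffolds and proteins of the cytoskeleton formed the next group, in which 5 of 6 members fell, with a median log2 change of -1.13. HOMER2, a scaffold that links receptors to calcium stores at synapses, was at 0.17, -0.15 and -0.07 in the controls and at -1.46, -1.75 and -1.60 after urolithin A. This was a 3.01-fold fall (log2 change -1.59, SE 0.10, adjusted p = 0.000246). Its 2 probe sets gave -1.62 and -1.55. RHOU, a small GTPase, had controls within 0.06 of each other and urolithin A arrays at -1.17, -1.44 and -1.74. Its treated arrays differed among themselves more than its controls, and it fell 2.78-fold (log2 change -1.47, SE 0.13, adjusted p = 0.000508).

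IQGAP2, a scaffold that binds small GTPases, fell 2.27-fold, from -0.15, 0.00 and 0.51 in the controls to between -1.22 and -0.96. Control replicate 3 was its high control; the log2 change without it was -0.99. PDLIM5, a protein with PDZ and LIM domains that ties kinases to the actin cytoskeleton, fell 2.11-fold (log2 change -1.08, SE 0.08, adjusted p = 0.000319); all of its 6 probe sets fell. AKAP12, which anchors protein kinase A, fell 1.22-fold (log2 change -0.29, SE 0.07, adjusted p = 0.0318), a call likewise lost in each fit that left out an array, where adjusted p reached 0.102. Of its 2 probe sets, the first had a log2 change of -0.63 (adjusted p = 0.00581) and the second of 0.06. The beta-tubulin gene TUBB2A did not pass, its log2 change being 0.08 with a 95% interval from -0.16 to 0.32.

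Among the enzymes, 5 of 7 measured members fell, with a median log2 change of -0.84. HPGD, which inactivates prostaglandins, was at -0.15, -0.07 and 0.26 in the controls and at -1.60, -1.57 and -1.55 after urolithin A. The 3 treated arrays lay within 0.05 of each other, and HPGD fell 3.00-fold (log2 change -1.59, SE 0.11, adjusted p = 0.000246). All 8 of its probe sets fell, by log2 changes from -2.36 to -0.87. GNMT, which spends S-adenosylmethionine to methylate glycine, fell 2.79-fold (log2 change -1.48, SE 0.13, adjusted p = 0.000646), with urolithin A arrays at -1.46, -1.19 and -1.64. PLPP1, a phosphatase of lipid phosphates, fell 1.97-fold, and UAP1, which makes the sugar donor UDP-N-acetylglucosamine, fell 1.79-fold. ABHD2, a serine hydrolase that cleaves monoacylglycerol, fell 1.66-fold, with urolithin A arrays at -0.86, -0.57 and -0.74.

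B4GALT1, a galactosyltransferase of the Golgi, did not pass as a gene (log2 change -0.15, 95% interval -0.34 to 0.04). Its 5 probe sets ran from -0.48 to 0.26, and the lowest of them passed alone (adjusted p = 0.0471). STEAP4, a metalloreductase of the cell membrane, did not pass either. Its controls were at -0.16, 0.00 and 0.02 and its urolithin A arrays at 0.05, 0.02 and 0.01, so the groups overlapped, and the 95% interval of its log2 change ran from -0.09 to 0.23.

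Of 5 regulators of signalling, 2 fell. PMEPA1, a membrane protein that restrains signalling by transforming growth factor beta, had the deepest fall of all members. It stood at 0.06, -0.35 and 0.02 in the controls and at -1.88, -1.71 and -2.20 after urolithin A. The fall was 3.59-fold (log2 change -1.84, SE 0.14, adjusted p = 0.000355), it was seen in each of 3 probe sets, and it ranked 11th from the lowest among all 18239 genes. CAMKK2, a kinase that activates AMP-activated protein kinase, fell 1.46-fold (log2 change -0.55, SE 0.10, adjusted p = 0.00963), from -0.06, 0.02 and 0.16 in the controls to -0.67, -0.51 and -0.36. The phosphatase gene CDC14B, the kinase gene SGK1 and the pseudokinase gene TRIB1 did not pass. Their log2 changes were -0.17 (95% interval -0.35 to 0.01), -0.07 (-0.33 to 0.18) and 0.10 (-0.10 to 0.30).

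Both members known for feedback on steroid hormone action are also raised by glucocorticoids, and they differed. FKBP5, a co-chaperone of HSP90 that lowers hormone binding by the glucocorticoid receptor, was at -0.04, -0.07 and 0.52 in the controls and at -1.34, -1.35 and -1.35 after urolithin A. The treated arrays were nearly alike, and FKBP5 fell 2.79-fold (log2 change -1.48, SE 0.14, adjusted p = 0.000795). TSC22D3, the leucine zipper protein GILZ, was at -0.64, 0.00 and 0.78 in control replicates 1, 2 and 3 and at -0.71, 0.17 and 0.98 in urolithin A replicates 1, 2 and 3. The arrays with the same replicate number lay close together while those of a group lay far apart. Its log2 change was 0.10 with a 95% interval from -0.90 to 1.11 and did not pass (adjusted p = 0.924). Its standard deviation within groups, 0.78, was the 6th highest of all 18239 genes, whose median was 0.10, and each of its 3 probe sets showed the same spread. Its direction turned without control replicate 1 or without urolithin A replicate 3, at log2 changes of -0.24 and -0.31.

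**Figure D2:**
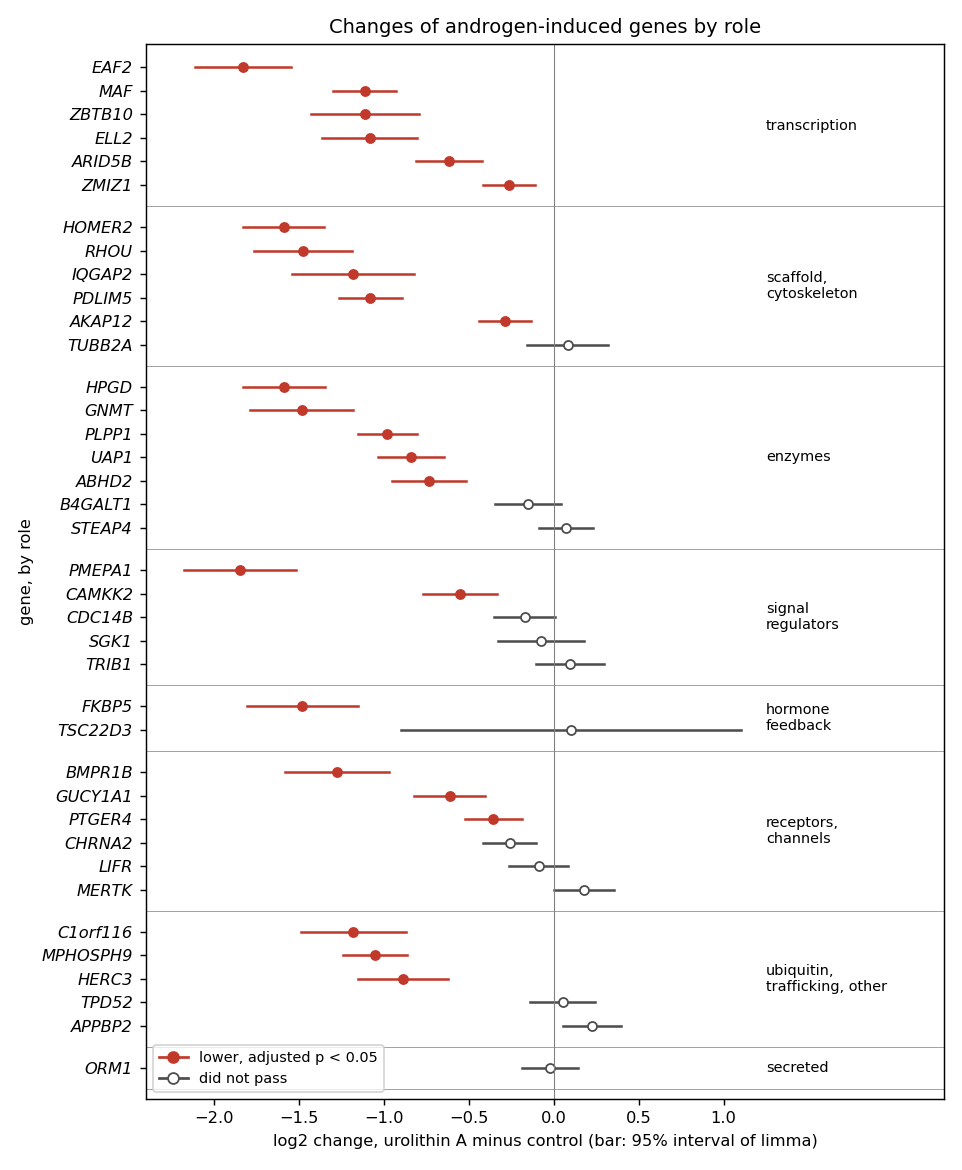
The log2 change of each measured member (urolithin A minus control) is plotted on the x axis with its 95% interval from limma, grouped by role; filled red circles fell and open grey circles did not pass. All 6 transcription members lie to the left of 0, and the interval of TSC22D3, from -0.90 to 1.11, is the widest.

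Receptors and channels were mixed, with 3 of 6 measured members fallen and a median log2 change of -0.31. BMPR1B, a type I receptor of bone morphogenetic proteins, was at -0.09, -0.01 and 0.44 in the controls and at -1.13, -1.29 and -1.07 after urolithin A. It fell 2.42-fold (log2 change -1.27, SE 0.13, adjusted p = 0.0011) in both of its probe sets. GUCY1A1, a subunit of the guanylate cyclase that senses nitric oxide, fell 1.53-fold, and 7 of its 10 probe sets fell alone. PTGER4, the EP4 receptor of prostaglandin E2, fell 1.28-fold (log2 change -0.35, SE 0.07, adjusted p = 0.0191). That call was lost, with adjusted p reaching 0.0674, if control replicate 2 was left out, and also for control replicate 3 and for urolithin A replicate 1.

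CHRNA2, a subunit of nicotinic acetylcholine receptors, narrowly missed the threshold (log2 change -0.26, SE 0.07, adjusted p = 0.0506), although its urolithin A arrays, at -0.25, -0.29 and -0.30, all lay below its controls. It passed when each array was centred on its median (adjusted p = 0.0481). LIFR, the receptor of leukemia inhibitory factor, had a log2 change of -0.09 (95% interval -0.26 to 0.09), and its groups overlapped. MERTK, a receptor tyrosine kinase, stood at 0.11, -0.14 and 0.00 in the controls and at 0.17, 0.17 and 0.16 after urolithin A. Its treated arrays lay above the controls, and its log2 change of 0.18 did not pass (adjusted p = 0.199).

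The remaining members act in ubiquitin transfer, trafficking, cilia or secretion, or have no settled role. C1orf116 fell 2.26-fold, from -0.02, -0.07 and 0.06 in the controls to -0.99, -1.04 and -1.54. MPHOSPH9, a protein of centrosomes and cilia, fell 2.07-fold (log2 change -1.05, SE 0.08, adjusted p = 0.000355). HERC3, a ubiquitin ligase, fell 1.85-fold. APPBP2, a substrate receptor of a cullin ubiquitin ligase, had the highest change of all members. It was at 0.06, 0.01 and 0.02 in the controls and at 0.39, 0.21 and 0.17 after urolithin A, with no overlap, and its log2 change of 0.23 (SE 0.07) did not pass (adjusted p = 0.102). It passed when the median of its 5 probe sets was used in place of the mean (adjusted p = 0.0466). ORM1, a secreted acute phase glycoprotein, had a log2 change of -0.02 with a 95% interval from -0.19 to 0.15.

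TPD52, a protein of vesicle trafficking, showed a log2 change of 0.05, short of the threshold, but its 8 probe sets did not move alike. Tested alone, 2 of them rose, by log2 changes of 0.79 (adjusted p = 0.0231) and 0.51 (adjusted p = 0.0478), and the other 6 lay between -0.27 and -0.06 and did not pass. These were the only 2 of the 136 member probe sets that rose, while 73 fell and 61 did not pass.

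Probe sets of a gene also disagreed within fallen members. Of the 4 probe sets of MAF, 2 fell by log2 changes of -2.22 and -2.19 and the other 2 were at -0.09 and 0.05, so the gene value of -1.11 lies at neither. FKBP5 had 5 probe sets between -2.11 and -1.59 and a single probe set at -0.09 (adjusted p = 0.676). Only the last has no suffix, so the call of FKBP5 ended without suffixed probe sets, as did that of GUCY1A1, at a log2 change of -0.28 (limma adjusted p = 0.353). ELL2 had 4 between -1.51 and -1.22 and a single probe set at -0.02. For PTGER4, the probe sets gave -0.79 (adjusted p = 0.00244) and 0.08. Of the 33 members with more than 1 probe set, 22 had all of them on the same side of 0. Which transcripts these probe sets detect was not examined.

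**Figure D3:**
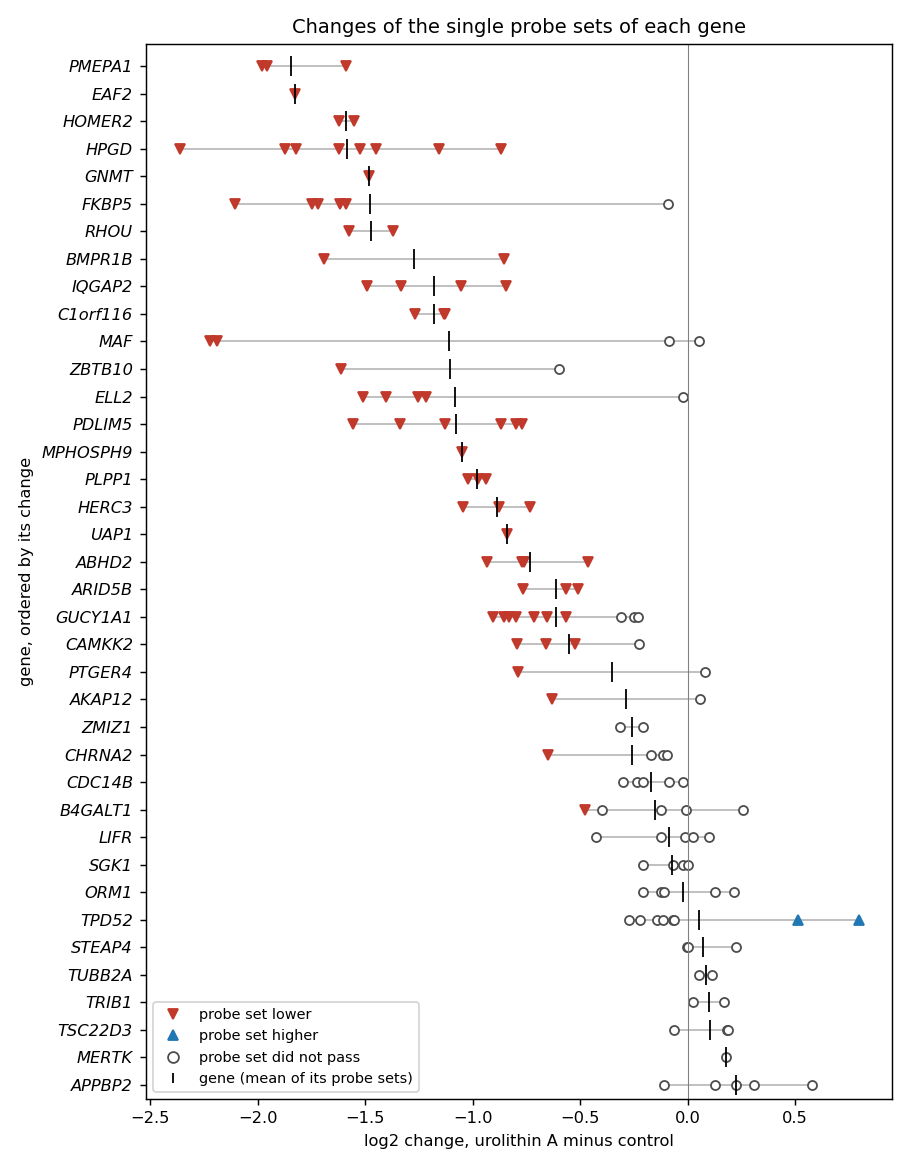
The log2 change of each of the 136 probe sets is plotted on the x axis by gene; red triangles pointing down fell, blue triangles pointing up rose, open circles did not pass, and the black tick is the gene's mean. MAF, FKBP5 and ELL2 have probe sets near 0 far to the right of the others, and TPD52 holds both probe sets that rose.

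Many members belong to families, and relatives were listed to see whether they moved too. Among the measured relatives, 2 of 47 fell and none rose (7 were lower and 1 higher at an unadjusted p under 0.05), with a median log2 change of -0.03, against 5.31% falling among all genes. PLPP3, a relative of PLPP1, had a log2 change of -0.36 (SE 0.07; limma adjusted p = 0.0123). STEAP1, a relative of STEAP4, was the other, at -0.32 (SE 0.07, adjusted p = 0.0296). The call of STEAP1 was lost, with adjusted p reaching 0.0998, on leaving out any array but control replicate 1. PLPP3 stood at -0.02 without the probe sets whose suffix marks sequence shared between genes (_s_ and _x_).

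A fallen member could be set beside a relative in 22 pairs, from 18 members, and the relative fell in 1 of them, PLPP1 with PLPP3. EAF1 had a log2 change of 0.02 (95% interval -0.15 to 0.19) beside -1.83 for EAF2. FKBP4, the co-chaperone that aids hormone binding, had 0.00 (95% interval -0.20 to 0.21) beside -1.48 for FKBP5. IQGAP1 had 0.30 beside -1.18 for IQGAP2 and did not pass (adjusted p = 0.112). The differences within pairs were not tested. TUBB2A with TUBB2B and ORM1 with ORM2 are near-identical gene pairs, and signal could be shared between their probe sets.

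**Figure D4:**
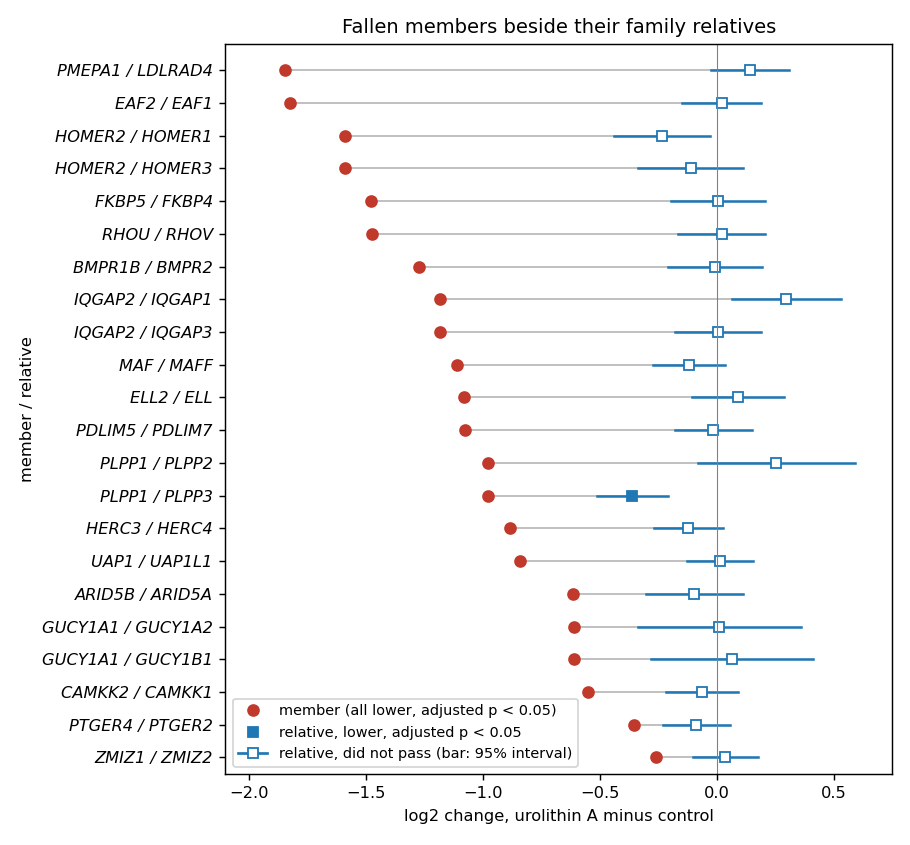
For each pair with a fallen member, the red circle is the member's log2 change and the blue square that of its relative, with its 95% interval; filled squares fell and open squares did not pass. The squares lie near 0, and only that of PLPP3, at -0.36, is filled.

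Other genes of the androgen response, 59 listed and 54 measured, also were lower: 25 fell and 1 rose, against 5.31% falling and 4.85% rising among all genes. The median log2 change of this list was -0.33. The 5 with the smallest p were STK39, a kinase of ion transport, at a log2 change of -1.34 (SE 0.10), the kallikrein gene KLK2 at -2.07 (SE 0.15), the cold-sensing channel gene TRPM8 at -1.26 (SE 0.10), the centromere gene CENPN at -1.30 (SE 0.10) and the secreted protease gene ADAMTS1 at -1.23 (SE 0.10), with adjusted p between 0.000303 and 0.000403. Without suffixed probe sets CENPN was at -0.01 (limma adjusted p = 0.991), STK39 at 0.03 and TRPM8 at -3.24, and TRPM8 was at -0.40 with the median of its probe sets. The call of TRPM8 was lost when most probe sets of a gene had to pass alone, in the same direction, for the gene to be called. The gene that rose was DNAJB9, a co-chaperone of the endoplasmic reticulum, at 0.74. The lists were drawn up with earlier results of these arrays known, so neither count is independent evidence of the direction.

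The receptor's partners were measured next. Of 18 measured genes for pioneer factors, coregulators and chaperones of the androgen receptor, 0 fell and 1 rose in the limma fit (2 were lower and 2 higher at an unadjusted p under 0.05), with a median log2 change of 0.04. These counts are near the shares of all genes, 5.31% falling and 4.85% rising. The gene that rose was the acetyltransferase gene CREBBP, with a log2 change of 0.31 (SE 0.08, limma adjusted p = 0.0487). That call was lost when any array but urolithin A replicate 2 was left out, at adjusted p up to 0.139. It held in 1 of 17 alternative fits. With median centring, with array weights and without moderation of the variances, 1 receptor partner was called, and it was not CREBBP. NR3C1, the gene of the glucocorticoid receptor, had a log2 change of 0.08 (95% interval -0.10 to 0.26) and did not pass. Of 11 partners of EAF2 and ELL2 in elongation, 0 passed in limma (2 were lower at an unadjusted p under 0.05), and 0 of 9 genes of the response to transforming growth factor beta and bone morphogenetic proteins, the pathways of PMEPA1 and BMPR1B, passed at either p. Among all genes 10.2% passed in limma, and lists this small can hold no call at that share.

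**Figure D5:**
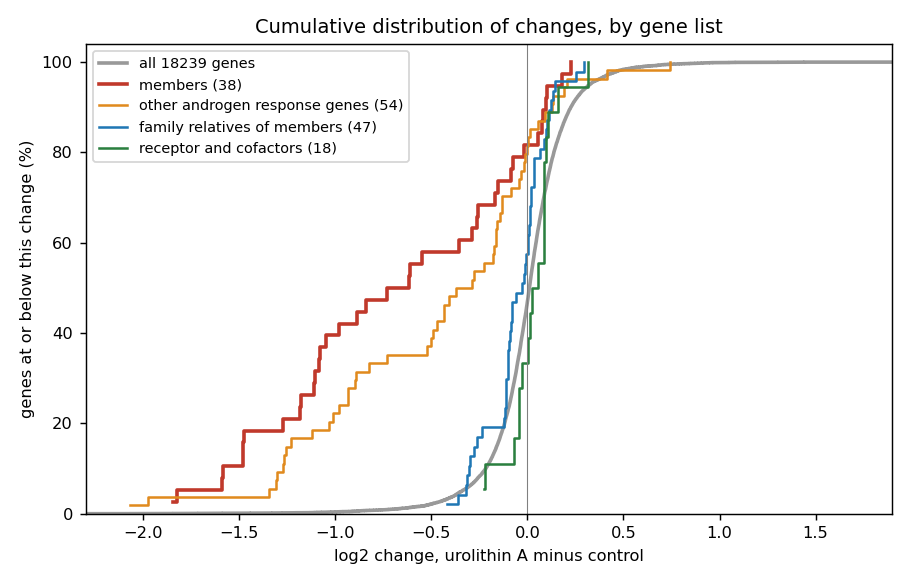
Each line gives the percentage of a list's measured genes (y axis) at or below a log2 change (x axis, which leaves out the few genes beyond its ends). The line of the 38 members has a median of -0.67, that of the 54 other androgen response genes has a median of -0.33, and relatives and receptor partners lie near the line of all 18239 genes.

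Because FKBP5, TSC22D3 and SGK1 are also raised by glucocorticoids, 12 further genes known for that response were examined. Where 5.31% of all genes fell, 6 of these genes fell and none rose, with a median log2 change of -0.35. They included ZBTB16, a zinc finger repressor, at -1.34 on the log2 scale (SE 0.17, adjusted p = 0.0023), the inhibitor of epidermal growth factor receptor signalling ERRFI1 at -0.71 (SE 0.10, adjusted p = 0.0031), and the transcription factor gene CEBPD at -1.09 (SE 0.15, adjusted p = 0.00394). Some of these genes are known to respond to androgen as well. Among the fits that left out 1 array the count was lowest, at 4, without urolithin A replicate 1 and without replicate 2. It was 3 without suffixed probe sets, 2 without the 3 arrays with raised HLA-DRA, and 0 without moderation of the variances.

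Members were also placed in gene order by the RefSeq table of GRCh38.p14. PDLIM5 and BMPR1B are next to each other among the measured protein-coding genes, and both fell. Leaving out members, 47 genes were the nearest measured neighbours of fallen members. Of these, 4 fell, 5 rose and 38 did not pass. Their median log2 change was -0.02. These counts stand against 5.31% falling and 4.85% rising among all genes. IQCB1, the neighbour of EAF2, was the most deeply fallen of the 4, at a log2 change of -0.76 (adjusted p = 0.0128). The neighbours were chosen after the values of the members were seen.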

How the data were processed

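Of each of 6 arrays the deposited values are on a log2 scale, computed by RMA according to what the authors deposited (the submitters' processing notes, with no version). In all 49386 probe sets the control median is exactly 0, hence levels were removed; no source states the logarithm's base, taken as 2 as is usual for RMA. The platform annotation gave 45253 probe sets 1 symbol, averaged into 18239 genes; those with several symbols were left out. Centred values allow no filter on low signal.

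Treatment was the only term in limma 3.58.1 under R 4.3.3, run by lmFit and eBayes with two-sided tests, Benjamini-Hochberg adjustment over all genes and a threshold of 0.05; probe sets were fitted alone over 45253. The code was tested on simulated data. The members and all lists were chosen with earlier results of these data known. Text names every member, the 5 passing genes of smallest p in larger lists, up to 3 in small ones, and NR3C1; other genes were chosen after their values were seen. Alternatives changed the replicate block, probe sets, scaling, variance prior, array weights and arrays used. No array pair was identical.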

Additional observations from a re-analysis of the deposited data

How the results depend on the processing

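Of the 25 fallen members, 7 (HOMER2, PMEPA1, MPHOSPH9, EAF2, RHOU, HPGD and PLPP1) fell under every alternative in which they were measured. All probe sets of these 7 have a suffix, so none of them was measured in the fit without suffixed probe sets. EAF2 and MPHOSPH9 have a single probe set each, so the median of probe sets could not change their values. Leaving out single arrays gave 22 to 23 fallen members, medians from -0.73 to -0.64, 1063 to 1309 called genes, 25 to 26 fallen other androgen response genes, 0 to 1 called receptor partners, 1 to 2 called relatives and 4 to 6 fallen glucocorticoid genes. In these fits log2 changes crossed 0 for SGK1 (-0.142 to 0.0491), TSC22D3 (-0.313 to 0.531), ORM1 (-0.0499 to 0.0304), TPD52 (-0.00798 to 0.110) and TUBB2A (-0.0215 to 0.181).

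With the replicate block 24 members fell, ZMIZ1 alone losing its call (adjusted p = 0.0724), and 0 receptor partners were called. Deviations of arrays with the same number correlated at 0.08, 0.02 and 0.20 over genes. Those of arrays with unlike numbers ran from -0.14 to 0.07. The values for the same number are all above 0 but not all above 0.1, so the arrays were not treated as paired in the main fit. Whether arrays of the same number share a batch was not tested. TSC22D3, whose arrays of the same number lay close together, did not pass with the block either (adjusted p = 0.491). With the median of probe sets 1 member rose, the members' median was -0.74, 0 receptor partners were called, and LIFR was at 0.00773, TPD52 at -0.0644 and NR3C1 at -0.00261. With each probe set tested alone, a gene was called if most of its probe sets passed in the same direction. Then 839 genes, 0 receptor partners and 1 relative were called. Without all suffixed probe sets 5 members fell, their median was -0.22, and 509 genes, 5 other androgen response genes, 0 receptor partners, 0 relatives and 3 glucocorticoid genes were called; PTGER4 was at 0.0792, B4GALT1 at 0.26, ORM1 at 0.21, TPD52 at -0.22 and STK39 at 0.0346. FKBP5 and GUCY1A1 lost their calls there, at -0.0940 and -0.281, as did CENPN, at -0.00653. Fewer genes were measured there. Without _s_ and _x_ probe sets alone, chosen after seeing the data, the median was -0.84, 0 receptor partners and 1 relative were called, PTGER4 was at 0.0792 and ORM1 at 0.21.

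Scaling to hybridisation controls called 646 genes, 0 receptor partners and 0 relatives, with ORM1 at 0.0140. The trended robust prior called 0 receptor partners and 1 relative. Without moderation 12 members fell, and 560 genes, 13 other androgen response genes, 1 relative and 0 glucocorticoid genes were called. Without control replicate 1 and urolithin A replicate 3 the median was -0.75, 705 genes, 0 receptor partners and 0 relatives were called, SGK1 was at 0.0422 and TSC22D3 at -0.65. With urolithin A replicate 2 also left out, chosen after seeing the data, 7 members fell, the median was -0.85, 48 genes, 4 other androgen response genes, 0 receptor partners, 0 relatives and 2 glucocorticoid genes were called, and SGK1 was at 0.0292, TRIB1 at -0.10, TSC22D3 at -1.09 and NR3C1 at -0.0182. Apart from the smaller numbers of arrays or probe sets, the cause was not tested. The number of arrays limits the precision of every value.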
